A study of Drosophila melanogaster with 35 samples.

Results

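The 10 genes described here are wds, trx, trr, Set1, ash1, ash2, Rbbp5, Utx, Cfp1 and Mnn1. All but ash1 encode subunits or close partners of the Drosophila histone H3 lysine 4 (H3K4) methyltransferase complexes, and ash1 encodes a related methyltransferase. The 10 genes were chosen by symbol, each matched 1 row in both deposited expression tables, and the region lists were then searched at their loci. These 10 genes stand among 15163 genes of the table for BG3C2 cells and 15061 genes of the table for brains, of which the authors tested 8645 and 8266, the 10 genes included.

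The series addressed DMAD, a Drosophila Tet-family protein encoded by CG43444, and N6-methyladenine in DNA (6mA) in neuronal cells. BG3C2 is a cell line from the larval central nervous system. Cells labelled DMAD-siRNA knockdown had been treated for 144 h with double-stranded RNA of 580 bp made from CG2083, an older name of the gene CG43444, with serum withheld at the start, per the labels' protocols. Control cells are labelled Wildtype, and the labels used here do not describe what they received. Brains came from flies labelled DMAD-knockout or Wildtype, with no allele, age or sex named in the sources used here. RNA was sequenced from 3 knockdown and 3 control BG3C2 libraries and from 2 knockout and 2 control brain libraries. DNA lists covered chromatin immunoprecipitation (ChIP) of DMAD (3 libraries, Wildtype cells), of Polycomb (Pc, 2 knockdown and 2 control libraries), of Wds and of histone H3 trimethylated at lysine 4 (H3K4me3, 1 knockdown and 1 control library each), and regions that gained 6mA in knockdown cells and in knockout brains. The 6mA libraries were 3 knockdown and 3 control libraries of BG3C2 cells, of which the labels number a pair in each group under the same replicate, and 1 knockout and 1 control library of brain, so the brain list has no replicate behind it. Lists of peaks of acetylated histone H3 lysine 27 (H3K27ac) and of RNA polymerase II (Pol II) were also deposited, without a matching sample among the labels used here.

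H3K4 methylation marks promoters and enhancers of active genes, and in flies it is written by a small set of SET-domain enzymes. Set1, Trithorax (Trx) and Trithorax-related (Trr) each work inside a complex of the COMPASS type, and share a core that holds Wds, Ash2 and Rbbp5. Other subunits are particular to a complex: Cfp1 to that of Set1, menin (Mnn1) to that of Trx, and the demethylase Utx to that of Trr. Trithorax-group proteins oppose the silencing of developmental genes by Polycomb-group proteins, of which Pc is the founding member.

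The tables hold 1 FPKM value (fragments of RNA counted per length of transcript and per sequencing depth) per gene and group. No spread between libraries can therefore be computed here, the depth of each library is unknown, and every call is the authors' own Cuffdiff call (q below 0.05). The labels do not say that the libraries came from separate cultures or separate collections of flies, and the deposited p-values then measure the spread between these libraries, which may be technical. For CG43444 itself the authors' deposited table gave 34.9 FPKM in knockdown and 65.9 FPKM in control BG3C2 cells (log2 fold change -0.91, q = 0.706, not called). In brains it gave 40.4 FPKM in the libraries labelled knockout and 39.8 FPKM in control libraries, also in the authors' deposited table. A gene-level value that includes unaltered exons need not drop in a knockout and so does not check that label, and brain directions are given for the libraries labelled knockout. Of 7 neuronal markers, 2 reached 1 FPKM in BG3C2 cells of either group (elav and Syx1A), against 7 of 7 in brains of either group. Of 4 glial markers, 3 reached 1 FPKM in BG3C2 cells of either group. The 4 summed to 164 FPKM in knockdown and 166 FPKM in control cells. In brains all 4 glial log2 fold changes were above 0 and all 7 neuronal ones below 0 (nSyb at -0.00), and none was called. Of 5 neuroblast markers, 0 reached 1 FPKM in knockdown and 1 (mira) in control BG3C2 cells. In brains 2 did in libraries labelled knockout and 1 in control libraries. Haemocyte markers summed to 129 FPKM in knockdown and 143 FPKM in control BG3C2 cells, of which srp gave 119 and 135 FPKM, per the authors' deposited table. The other haemocyte markers that were tested did not have lower values in knockdown cells (Pxn 5.74 FPKM in knockdown and 4.77 FPKM in control cells, Hml 3.82 and 3.78 FPKM in the authors' deposited table), NimC1 and He were below 1 FPKM, and none of the list was called. Fat body markers were all 5 at 1 FPKM or above in both brain groups, and summed to 381 FPKM in libraries labelled knockout and 1028 FPKM in control libraries. The yolk protein genes Yp1, at 225 FPKM in libraries labelled knockout and 624 FPKM in control libraries, and Yp2, at 142 and 383 FPKM, fell in the authors' deposited table (q = 0.0248 and 0.0103). These genes made up most of both sums. Lsp2 (9.12 and 14.8 FPKM) and Lsp1beta (2.48 and 4.24 FPKM) were lower but not called, per the authors' deposited table. Fbp1 went the other way, at 2.84 FPKM in libraries labelled knockout and 1.47 FPKM in control libraries, and was not tested. Photoreceptor markers summed to 4063 FPKM in libraries labelled knockout and 4519 FPKM in control libraries, and 1 of these 4, trpl, fell (124 and 270 FPKM, q = 0.0103 in the authors' deposited table). The part of such cells in the brain values was not tested, and in these bulk samples fewer cells of a type and less RNA per cell cannot be told apart. The sex of the flies is not named in the sources used here, and its part in the values of the yolk protein genes was not tested either.

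The comparison of knockdown with control BG3C2 cells asks whether depletion of DMAD goes with a change in the RNA of the 10 genes. All 10 genes were expressed in both groups, at 5.08 to 70.2 FPKM in knockdown cells and 5.66 to 76.6 FPKM in control cells, and none was called. Among all tested genes the authors' deposited table called 22 of 8645 (0.254%), 19 of them higher (0.220%) and 3 lower (0.0347%). At an unadjusted p below 0.05 it held 200 genes (2.31%), again with 0 of the 10. Each of the 10 had a lower value in knockdown than in control cells, by small amounts: in the authors' deposited table they ran on the log2 scale from -0.38 to -0.10, with a median of -0.14, against a median of -0.01 over all tested genes. Log2 fold changes were below 0 for 51.6% of all tested genes, and for 57.3% of the 5410 tested genes whose control FPKM lay inside the range that the 10 genes span.

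The enzymes that carry the SET domain differed in level more than between the groups. Set1, which writes most H3K4 trimethylation in flies, lies on the heterochromatic scaffold 3LHet (593050 to 601402, build dm3, as all positions here). It had 30.04 FPKM in knockdown cells and 32.34 FPKM in control cells in the authors' deposited table (log2 fold change -0.11, p = 0.707). The founding Trithorax-group gene trx (3R, 10087113 to 10112625) had 23.03 FPKM in knockdown and 27.01 FPKM in control cells in the authors' deposited table (log2 fold change -0.23, p = 0.387). The gene trr (X, 1774315 to 1783808), whose product monomethylates H3K4 at enhancers, had 19.9 FPKM in knockdown and 22.7 FPKM in control cells in the authors' deposited table (log2 fold change -0.19, p = 0.497). Lowest of these enzymes was ash1 (3L, 19583873 to 19591855), a Trithorax-group methyltransferase that acts on H3 lysine 36. Its values in the authors' deposited table were 11.4 FPKM in knockdown and 13.4 FPKM in control cells (log2 fold change -0.23, p = 0.369). The knockdown value thus stood at 85.2% to 92.9% of control for these 4 genes.

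The shared core spanned both ends of the range. The gene wds (X, 2480010 to 2482250) encodes the fly WDR5, a WD40-repeat protein that holds the core together, and it was the most highly expressed of the 10 in BG3C2 cells. The authors' deposited table gave it 70.2 FPKM in knockdown and 76.6 FPKM in control cells, above 80.8% and 82.8% of tested genes in those groups (log2 fold change -0.13, p = 0.629). The core gene ash2 (3R, 20475810 to 20480543) was next, at 41.0 FPKM in knockdown and 44.0 FPKM in control cells in the authors' deposited table (log2 fold change -0.10, p = 0.765). Rbbp5 (3L, 20338836 to 20341042), whose product contacts the catalytic SET domain, had the value farthest below control. It stood at 10.6 FPKM in knockdown and 13.8 FPKM in control cells in the authors' deposited table, a log2 fold change of -0.38 (p = 0.245, q = 1.00), with knockdown at 76.8% of control. No gene of the 10 had a smaller p in this comparison, and the q-value was 1.00 for all 10.

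Of the genes for subunits particular to a complex, Utx (2L, 10272325 to 10278811), which removes methyl groups from H3 lysine 27, had 21.4 FPKM in knockdown and 23.1 FPKM in control cells in the authors' deposited table (log2 fold change -0.11). Cfp1 (X, 9164634 to 9166922), a CXXC zinc finger protein, had 10.8 FPKM in knockdown and 11.9 FPKM in control cells in the authors' deposited table (log2 fold change -0.13). The menin gene Mnn1 (2L, 7056301 to 7063586) was the lowest of the 10, at 5.08 FPKM in knockdown and 5.66 FPKM in control cells in the authors' deposited table (log2 fold change -0.16). Their p-values lay between 0.626 and 0.681. The loci of trx, trr, Set1, ash2 and Mnn1 share their coordinates with another gene of the table, so the split of reads between the genes of such a locus is uncertain.

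**Figure D1:**
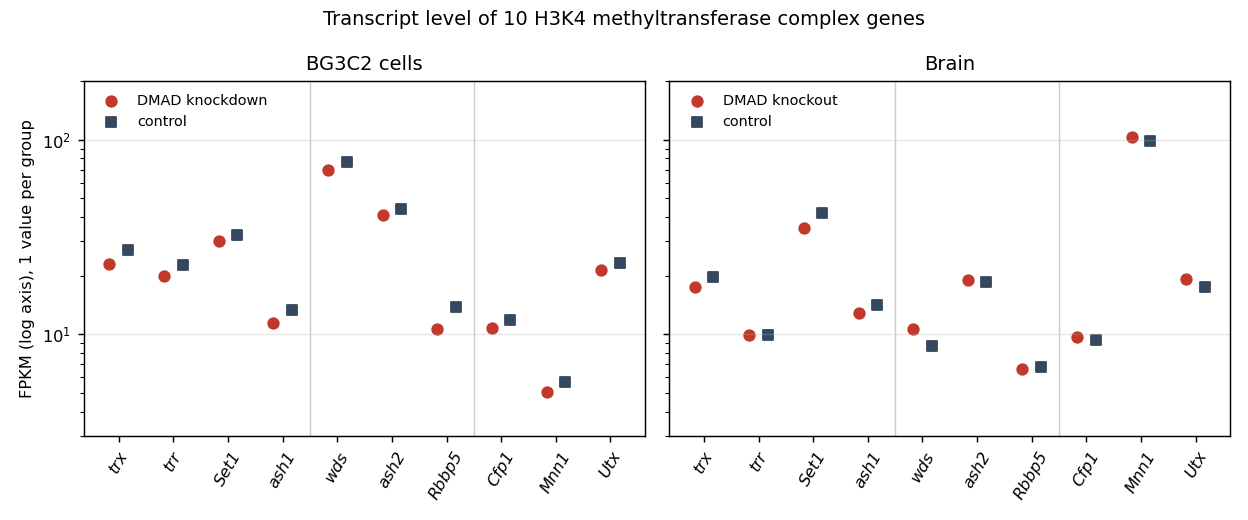
FPKM (log axis) of the 10 genes in BG3C2 cells and in brains, 1 value per gene and group as deposited, so there are no error bars; vertical lines part the enzymes, the shared core and the subunits particular to a complex. In BG3C2 cells every knockdown point lies below its control point, with wds highest and Mnn1 lowest, and in brains Mnn1 is highest at 103 FPKM in libraries labelled knockout and 98.9 FPKM in control libraries.

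In brains the 10 genes were again all expressed, and none was called. The authors' deposited table called 63 of 8266 tested genes (0.762%), 32 of them higher (0.387%) and 31 lower (0.375%), and 290 (3.51%) had an unadjusted p below 0.05, again with 0 of the 10. Libraries labelled knockout had the higher value for 5 of the 10 genes and the lower value for the other 5, where 51.2% of all tested genes were lower. In the authors' deposited table the changes ran from -0.25 to 0.30 on the log2 scale, with a median of 0.01, against -0.01 over all tested genes. The 5 with lower values were Set1, trx, ash1, Rbbp5 and trr, of which trr was nearly even (log2 fold change -0.01, p = 0.978 in the authors' deposited table).

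The value farthest above control in brains was that of wds, at 10.7 FPKM in libraries labelled knockout and 8.71 FPKM in control libraries in the authors' deposited table (log2 fold change 0.30, p = 0.442). Farthest below control was Set1, at 35.1 FPKM in libraries labelled knockout and 41.8 FPKM in control libraries in the authors' deposited table (log2 fold change -0.25, p = 0.326). No p among the 10 was smaller than that of Set1. Values of trx were 17.5 FPKM in libraries labelled knockout and 19.6 FPKM in control libraries, and those of ash1 12.9 and 14.2 FPKM, in the authors' deposited table. The gene trr had 9.91 FPKM in libraries labelled knockout and 9.97 FPKM in control libraries, the most even pair of the 10 (log2 fold change -0.01 in the authors' deposited table). Of the remaining genes, ash2 had 18.9 FPKM in libraries labelled knockout and 18.6 FPKM in control libraries, and Rbbp5 had 6.66 and 6.78 FPKM, per the authors' deposited table. Utx stood at 19.2 FPKM in libraries labelled knockout and 17.4 FPKM in control libraries, Cfp1 at 9.73 and 9.31 FPKM, and Mnn1 at 103 and 98.9 FPKM, per the authors' deposited table. The size of the change, whatever its sign, was below the median size over all tested genes (0.17 on the log2 scale) for 8 of the 10 genes in brains, and below that in BG3C2 cells (0.14) for 5 of the 10.

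**Figure D2:**
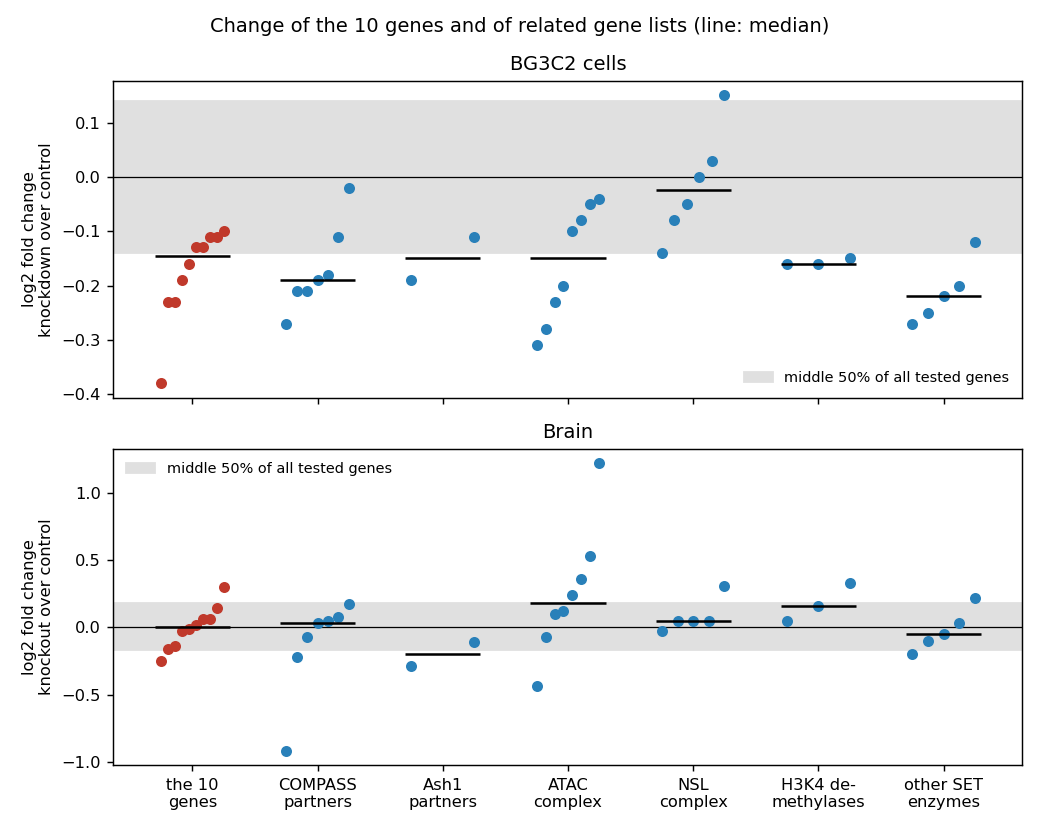
Log2 fold change of FPKM (knockdown over control in BG3C2 cells, above; libraries labelled knockout over control in brains, below) for each tested gene of the 10 and of 6 related lists, with the median of each list as a line and the middle 50% of all tested genes as a grey band. The scales of the panels differ. In BG3C2 cells all 10 genes lie below 0 and in brains they lie on both sides, and no point in either panel was called.

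The order of levels differed between the tables. The tables were normalised separately, so levels are set side by side as the percentile among tested genes of the same table and group. Mnn1 stood above 88.9% of tested genes in brain libraries labelled knockout and 87.9% in control brain libraries, but above 19.5% in knockdown and 20.3% in control BG3C2 cells. Its locus is shared with CG31907 in both tables, so the split of reads between these genes is uncertain. For wds the order was turned round: above 25.2% of tested genes in brain libraries labelled knockout and 21.2% in control brain libraries, and above 80.8% and 82.8% in knockdown and control BG3C2 cells. Rbbp5 was in the lower part of both, at 12.1% in brain libraries labelled knockout and 14.8% in control brain libraries, and at 29.4% and 34.5% in knockdown and control BG3C2 cells. Set1 was second in level in both brain groups and the third in both BG3C2 groups. Neighbours in these orders cannot be tested against a spread, and some are close: Rbbp5 at 10.6 FPKM was below ash1 at 11.4 FPKM in knockdown BG3C2 cells, and at 13.8 FPKM above ash1 at 13.4 FPKM in control BG3C2 cells.

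**Figure D3:**
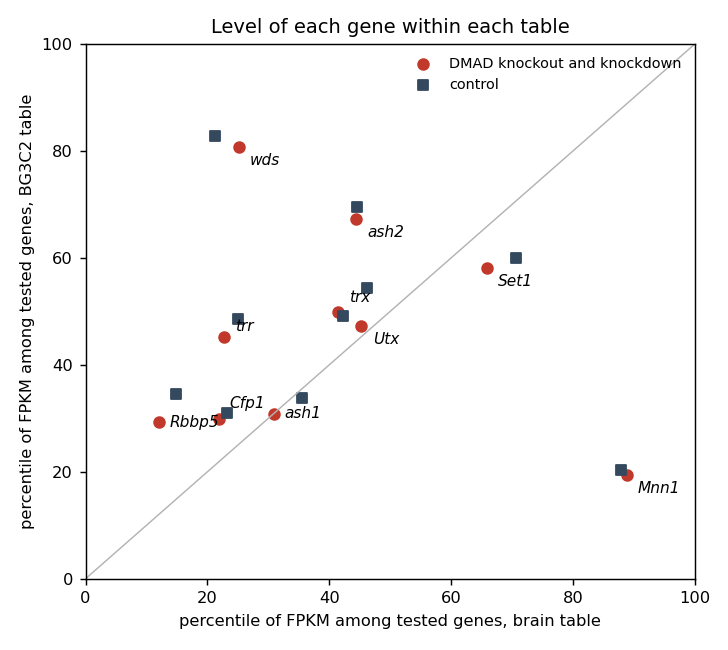
Percentile of FPKM among tested genes of the same group, in the brain table (x axis) and in the BG3C2 table (y axis), 1 circle per gene for the DMAD-depleted groups and 1 square for the controls; the grey line marks equal percentiles. Mnn1 lies far below the line and wds far above it, and the circle and the square of a gene lie close together.

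Across the 4 group values, the genes with a profile most like that of wds were CG7627, pnt and TH1, among 6809 genes tested in both tables. Their Euclidean distances to wds on the log2(FPKM + 1) scale were 0.19, 0.20 and 0.22. CG7627 had 77.7 FPKM in knockdown and 81.6 FPKM in control BG3C2 cells, and 10.6 FPKM in libraries labelled knockout and 9.34 FPKM in control libraries of brain. The transcription factor gene pnt had 68.1, 81.7, 10.4 and 9.94 FPKM in the same order, and TH1, a gene for a subunit of the NELF pausing complex, had 63.8, 70.1, 10.8 and 9.51 FPKM. In these 4 values the tables differ by far more than the groups. The ranking thus mostly describes the difference between the cell line and brain tables. These were normalised separately, so any difference of scale between them is included.

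Partner genes of the same and of related complexes were taken from 6 lists. In BG3C2 cells 31 of their 32 genes were tested, and none was called in the authors' deposited table, against 0.254% of all tested genes. Of these 31, 29 had a lower value in knockdown cells, where 51.6% of all tested genes were lower. Their median log2 fold change was -0.16, beside the -0.01 of all tested genes. All 7 tested partners of the COMPASS-type complexes were below 0 (median -0.19), from Ptip at 12.4 FPKM in knockdown and 15.0 FPKM in control cells to Pa1 at 37.4 and 38.0 FPKM, per the authors' deposited table. All 8 genes of the ATAC histone acetyltransferase complex, which also holds Wds, were below 0 (median -0.15), led by Ada2a at 15.0 FPKM in knockdown and 18.6 FPKM in control cells in the authors' deposited table. The NSL complex, another that holds Wds, had 4 of 6 genes below 0 (median -0.03), and its Rcd5 had 49.4 FPKM in knockdown and 44.6 FPKM in control cells in the authors' deposited table. The 3 genes for H3K4 demethylation (lid, Su(var)3-3 and CoRest) were at -0.16 to -0.15 on the log2 scale in the authors' deposited table. The 5 genes for other histone methyltransferases (Set2, Mes-4, Set8, gpp and egg, labelled other SET enzymes in the figure) were at -0.27 to -0.12. The Ash1 partners MRG15 and Caf1 were at -0.11 and -0.19 on that scale in the authors' deposited table. Of the Hox genes, known targets of trx, 0 of 8 were tested in BG3C2 cells, where the highest value was 0.0349 FPKM in knockdown and 0.0406 FPKM in control cells in the authors' deposited table.

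In brains 30 of the 32 partner genes were tested and none was called, against 0.762% of all tested genes. Libraries labelled knockout had the lower value for 11 and the higher value for 19 (median log2 fold change 0.05 in the authors' deposited table). Of all tested genes, 51.2% were lower. The largest difference downward was that of Pa1, a partner in the Trr complex, at 25.6 FPKM in libraries labelled knockout and 48.3 FPKM in control libraries in the authors' deposited table (log2 fold change -0.92, p = 0.0509, q = 1.00). The largest upward was that of Atac1, at 4.34 FPKM in libraries labelled knockout and 1.86 FPKM in control libraries in the authors' deposited table (log2 fold change 1.22, p = 0.197). The ATAC list had 6 of 8 genes above 0 (median 0.18), among them D12 at 5.57 FPKM in libraries labelled knockout and 3.85 FPKM in control libraries, while Ada2a had 5.30 and 7.20 FPKM, per the authors' deposited table. CoRest, the corepressor that works with the demethylase of the Su(var)3-3 gene, had 45.5 FPKM in libraries labelled knockout and 36.1 FPKM in control libraries in the authors' deposited table (log2 fold change 0.33, p = 0.183). The NSL list was at a median of 0.05 with dgt1 highest at 0.31, the other histone methyltransferases at -0.05, the COMPASS partners at 0.03 and the Ash1 partners at -0.20, in log2 fold change in the authors' deposited table. Of the 8 Hox genes 0 were tested in brains, and Scr was highest at 2.92 FPKM in libraries labelled knockout and 1.97 FPKM in control libraries in the authors' deposited table.

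What lay on the chromatin of these loci was read from the region lists, counting a locus as marked when at least 1 bp of a region fell inside it. Shares over all tested loci count each of the 8645 tested genes with its locus, so a locus shared by several genes is counted for each. Regions of the Wds protein lay on 7 of the 10 loci (wds, trx, trr, ash1, ash2, Rbbp5 and Mnn1), 11 in all. A Wds region was at 50.9% of all tested loci. Where at least 50% of the region had to lie inside the locus, 4 of the 10 remained marked (trx, trr, ash2 and Mnn1), against 29.9% of all tested loci, and wds itself was not among them. DMAD regions lay on 6 of these 7, all but Rbbp5, against 57.4% of all tested loci. Pc regions lay on wds, trr and ash2, so on 3 of 10 loci against 50.6% of all tested loci. The combination of Wds and DMAD was found at 6 of 10 loci and at 40.3% of all tested loci, and Wds, DMAD and Pc together at 3 of 10 and at 32.0%. These lists give 1 set of regions each, with no control and knockdown list apart, and no strength. The median length of the 10 loci was 6886 bp, against 4282 bp over all tested loci, and longer loci have more room for a region. The longest was 25513 bp among the 10 and 7137400 bp among all tested loci.

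**Figure D4:**
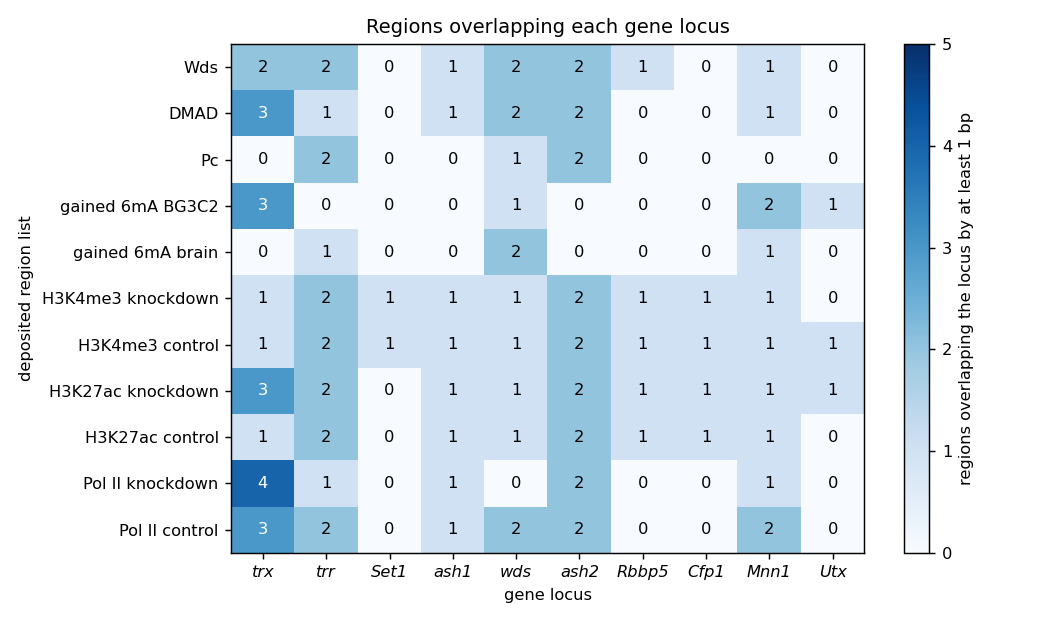
Number of regions of each deposited list (rows) that overlap each gene locus (columns) by at least 1 bp; darker cells hold more regions. The loci of wds, trr, Mnn1, trx, ash2 and ash1 carry regions of most lists, and those of Set1 and Cfp1 carry only H3K4me3 and, at Cfp1, H3K27ac.

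H3K4me3, the mark that COMPASS-type complexes write, was present at nearly all of the loci in both lists. Knockdown cells had a peak at 9 of 10 loci and control cells at 10 of 10, against 83.7% and 82.4% of all tested loci. The exception was Utx, where it turned on a few bases: the control peak reached 5 bp into the locus, and the knockdown peak ended 14 bp outside it. Both lie mostly over the neighbours Mulk and trk, whose locus adjoins that of Utx. At wds the knockdown list held 1 peak from 2478136 to 2481753, where the control list held 2 peaks, from 2478137 to 2479527 and from 2479591 to 2481767. The peaks with the lowest authors' scores (a rescaled log10 of the peak's p, higher for a smaller p) were at trx and Set1. That at trx scored 181 in the knockdown list and 72.2 in the control list, higher than 12.2% and 6.06% of peaks of the same list. That at Set1 scored 409 in the knockdown list and 246 in the control list, higher than 19.0% and 19.2% of peaks. At the other loci most peaks were at the value of 3100 or above, which 47.3% of knockdown peaks and 39.2% of control peaks reach, so scores there do not rank the loci.

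H3K27ac, a mark of active promoters and enhancers, was at 9 of 10 loci in the knockdown list and at 8 of 10 in the control list, against 88.4% of all tested loci in either. Set1 had none in either list. Utx again differed by a few bases, with 4 bp of the knockdown peak inside the locus and the control peak 10 bp outside. At trx the knockdown list held 3 H3K27ac peaks and the control list 1. The pair that stood in the knockdown list alone scored 55.1 and 51.3, close to the lowest score of the list, 50.0.

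Pol II peaks were at 5 of 10 loci in the knockdown list and at 6 of 10 in the control list, against 45.9% and 69.8% of all tested loci. The Pol II knockdown list carries the name BG3C2 and the control list the name BG3C3, and the sources used here do not say whether the cells were the same line, so every Pol II contrast given here rests on reading them as the same. The locus that had a peak in the control list alone was wds. There the control peak from 2478105 to 2481842 had a score of 682, higher than 94.7% of peaks of its list, and a second from 2482193 to 2485556 reached 58 bp into the locus. The knockdown list held no peak within 1 kb of wds. This went with a pattern of the whole X chromosome, on which wds lies: the knockdown list held 236 Pol II peaks on the X and the control list 733, and on the other arms it held 7174 against 6043. Of tested X loci with a control peak, 654 of 795 (82.3%) had no peak in the knockdown list, and of loci on other arms 1804 of 5240 (34.4%). Counted over all tested loci, 10.4% of X loci had a peak in the knockdown list and 54.6% in the control list, and 53.1% and 72.9% of loci on the other arms. The difference between X and other arms was noticed after the values were seen, and its part in the result at wds was not tested. Of the other X-linked genes, trr had 1 Pol II peak in the knockdown list, from 1776007 to 1784036 with a score of 512, and 2 in the control list, from 1774170 to 1775551 and from 1776025 to 1786540. The control list also had a peak 467 bp outside the trr locus, and neither that peak nor the first of those at trr overlapped a knockdown peak. Cfp1 had none in either list. At wds the H3K4me3 and H3K27ac peaks were listed in both groups, and wds RNA in knockdown cells was 91.6% of control.

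Regions that gained 6mA lay on 4 of 10 loci in BG3C2 cells (wds, trx, Utx and Mnn1, with 7 windows of 1000 bp) and on 3 of 10 in brains (wds, trr and Mnn1, with 4 regions), against 20.1% of all tested loci in each. Gain in both was listed at wds and Mnn1, and at 12.2% of all tested loci. At both genes the regions of the cell line and of brain overlapped each other. None of the genes with a gained region was called in the RNA of the same tissue. Of all tested genes only 0.254% were called in BG3C2 cells and 0.762% in brains, so calls among so few genes would be rare. The authors' deposited table put the genes with a gained region at log2 fold changes of -0.13 (wds), -0.23 (trx), -0.11 (Utx) and -0.16 (Mnn1) in BG3C2 cells, and 0.30 (wds), -0.01 (trr) and 0.06 (Mnn1) in brains.

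At wds the gained BG3C2 window runs from 2480001 to 2481000, at the lower-coordinate end of the locus. A Wds peak (2478702 to 2480811) covers 81.1% of it, so the Wds list has a region over the window at the gene's own locus. A DMAD region (2476880 to 2481905), a Pc region (2479689 to 2481498), the H3K4me3 and H3K27ac peaks of both lists and the control Pol II peak cover the whole window. The brain region from 2480061 to 2480566 lies inside that window and inside the Wds, DMAD and Pc regions. A second brain region, from 2481700 to 2482065, lies in the upper part of the locus. The neighbours CG13759 and CG13760 end 277 bp below the locus and egh starts 283 bp above it, so wide regions here reach over more than 1 gene. The other Wds and DMAD regions at wds lie mostly toward egh, with 163 bp and 84 bp inside the wds locus.

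At Mnn1 the window from 7056001 to 7057000 lies at the lower-coordinate end of the locus and wholly inside a Wds peak (7055811 to 7057207), and the brain region from 7056264 to 7056789 lies inside both. H3K4me3 covers 96.0% of this window in the knockdown list and 90.0% in the control list. The DMAD region of the locus (7057683 to 7059298) lies outside the window, and no Pc region overlaps the locus. Pol II was listed at 7057774 to 7059289 in the knockdown list, and at 7056007 to 7057249 and 7057253 to 7058953 in the control list. The knockdown peak scored 68.0, higher than 32.0% of its list, and the control peaks scored 59.1 and 60.3, higher than 11.5% and 12.8% of theirs. A second window at Mnn1, from 7061001 to 7062000, overlaps no region of the other lists.

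The longest of the 10 loci, trx, holds 3 adjoining windows from 10102001 to 10105000. The last of them is covered to 91.1% by a Wds peak (10104090 to 10105345) and to 94.9% by a DMAD region (10104052 to 10105600), and these lie far inside the locus rather than at an end. The H3K4me3 peak of trx is at the higher-coordinate end, from 10111517 to 10112670 in the knockdown list and from 10111548 to 10112629 in the control list, next to the second Wds peak (10111785 to 10113084). Pol II was listed at 4 places in the knockdown list and at 3 in the control list, and no Pc region overlaps the locus. The Utx window (10274001 to 10275000) overlaps no region of any other list. At trr the brain region from 1783306 to 1783978 lies wholly inside Wds (1782547 to 1784956), DMAD and Pc regions at the higher-coordinate end.

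**Figure D5:**
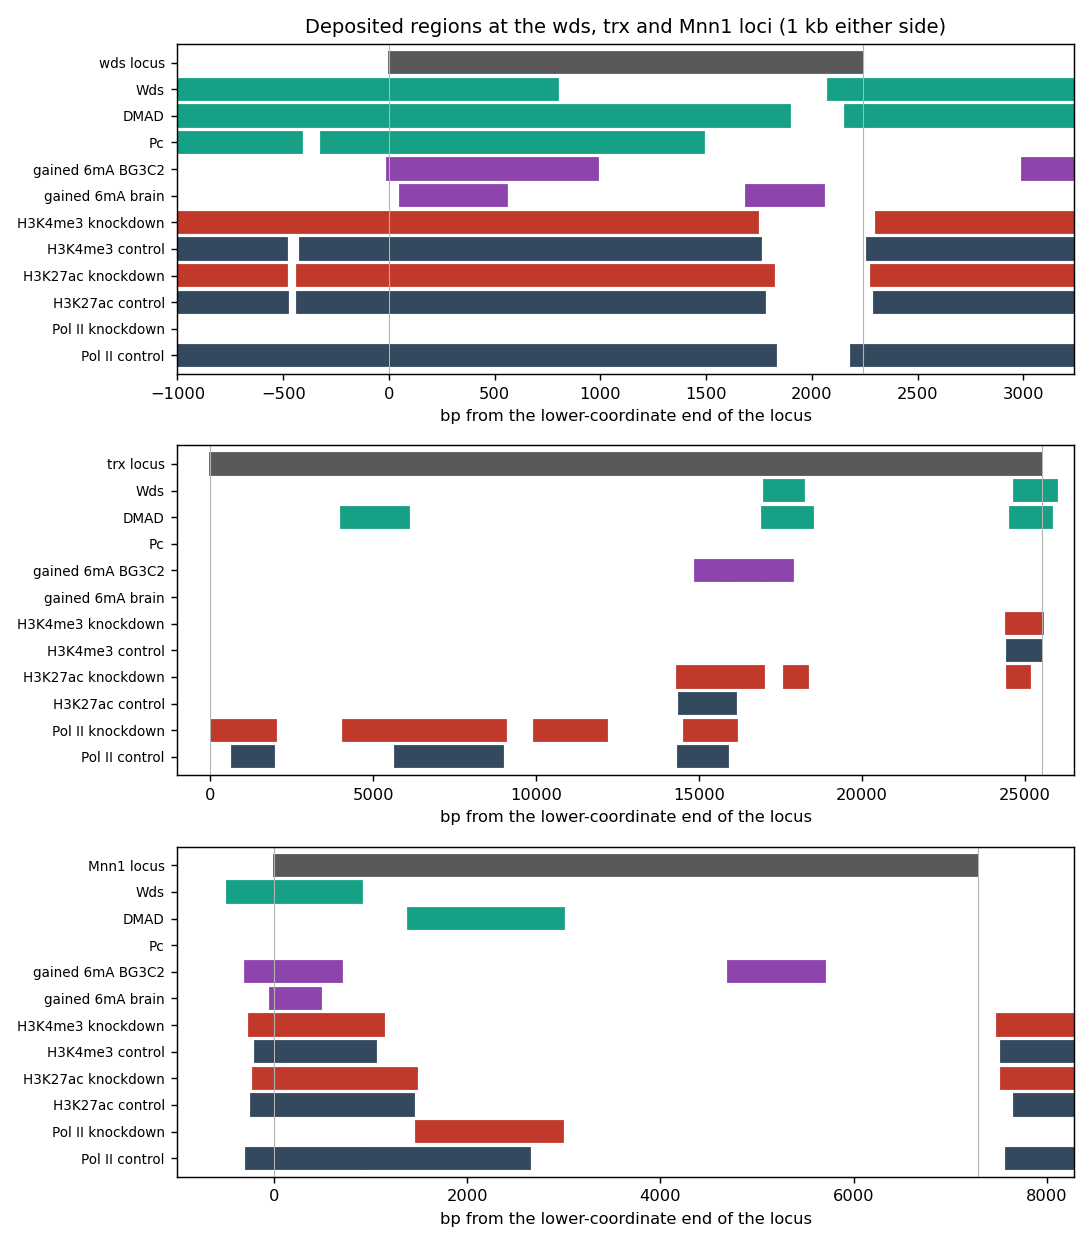
Positions of the deposited regions at the loci of wds, trx and Mnn1, as distance in bp from the lower-coordinate end of the locus, from 1 kb below to 1 kb above each locus; each row is a list, the grey bar is the locus, and regions a few bp apart appear joined. At wds the gained window at the low end lies under Wds, DMAD and Pc regions and the Pol II knockdown row is empty, at trx 3 adjoining windows reach the inner Wds and DMAD regions, and at Mnn1 the windows of cells and brain meet inside a Wds region.

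Set beside the lists as wholes, 3 of the 7 gained BG3C2 windows at these loci overlapped a Wds region, against 10.7% of all 6093 windows, wherever in the genome they lie. For DMAD it was 2 of 7 against 13.2%, for Pc 1 of 7 against 13.6%, and for H3K4me3 2 of 7 in either list, against 8.99% in the knockdown list and 8.83% in the control list. Of the 4 gained brain regions, 3 overlapped a Wds region, against 5.67% of all 5340, 3 a DMAD region, against 9.01%, and 2 a Pc region, against 8.86%. All 4 overlapped an H3K4me3 peak of BG3C2 cells, against 6.14% with the knockdown list and 6.16% with the control list. The DMAD, Pc, Wds and H3K4me3 lists are from the cell line and not from brain. The 7 windows come from 4 genes and the 3 at trx adjoin each other, so these counts describe few independent places. The whole lists also include regions outside expressed genes, while the 10 loci are all of expressed genes, so these shares are not like for like. A closer background is the loci of tested genes. Of these, 1741 had a gained BG3C2 region and 1161 had both that and a Wds region. Of the 4 genes here with a gained BG3C2 region, 3 had both. Of the 11 Wds regions at the 10 loci, 10 overlapped a DMAD region (70.7% of all 2976 Wds regions), 6 a Pc region (52.5%) and 10 an H3K4me3 peak of either list (71.2% in the knockdown list, 70.4% in the control list).

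The remaining loci had no gained 6mA region. The locus of ash2 was among those with the most regions, and carried 2 Wds regions (20474666 to 20477556 and 20479646 to 20481492), 2 Pc and 2 DMAD regions, and 2 peaks in each list of H3K4me3, H3K27ac and Pol II. At ash1 the Wds region (19591209 to 19592810) lies over the higher-coordinate end, and a Pc region and a gained brain region lie 234 bp and 288 bp outside it, toward Taf6. The Wds region at Rbbp5 (20340428 to 20343104) extends past the end of the locus, and the nearest DMAD region starts 159 bp outside. Cfp1 had peaks of H3K4me3 and H3K27ac but no region of the other lists. Set1 had an H3K4me3 peak alone. Its scaffold 3LHet held few regions of DMAD (3), Wds (4), Pc (24) and H3K27ac (7 in either list). Pol II had 19 there in the knockdown list and 10 in the control list. H3K4me3, which was listed at Set1, had 10 there in the knockdown list and 16 in the control list. The part of the scaffold in the absence of the other regions at Set1 was not tested. The gained 6mA lists held more regions on this scaffold, 33 in BG3C2 cells and 114 in brains.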

How the data were processed

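Expression values are FPKM, of which the authors deposited 1 per gene and group in 2 tables with Cuffdiff columns, per the file headers. The log2 fold changes, p-values and q-values are those the authors deposited, and a call means a tested gene that the authors marked as significant at a q below 0.05. Peak scores are the deposited MACS scores, which serve here to place a peak among the others of its list. The submitters' processing notes name build dm3, and mm9 for some samples, and the tools Cuffdiff 2.2.1, TopHat2 2.0.8, MACS 1.4.2, Bowtie 0.12.9, bedtools and CASAVA 1.4. The lists for DMAD, Pc and Wds are merged sets, per their names, and which libraries were merged is not given in the sources used here.

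Regions were intersected with the locus given in the tables, with at least 1 bp shared; locus starts were read as counting from 0, as were the lists other than the gained BG3C2 windows. No test was fitted, since no spread between libraries is given. The code that counts overlaps was checked against bedtools on made-up intervals, and the overlap counts themselves were set against no simulation. All 10 genes are named. From the related lists only some of the genes farthest above or below 0, with at least 1 FPKM in both groups, are named. Gene levels most like wds were ranked on log2(FPKM + 1). The 10 genes and all lists were chosen with earlier results of these data known. Alternatives were a q below 0.01, an unadjusted p below 0.05, log2 ratios of FPKM + 1 and FPKM + 0.1, centring, a minimum of 1 FPKM, loci that overlap no other, loci extended by 1 kb, regions at least 50% inside the locus and the upper 50% of scored peaks; the split by X and other arms and the background within the range of control FPKM were added after the data were seen. No column with values of single samples was passed over (0 left). MNase and H3K27me3 data were not analysed here. Python 3.11.15, pandas 2.3.3, numpy 2.4.6 and matplotlib 3.10.9 were used.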

Additional observations from a re-analysis of the deposited data

How the results depend on the processing

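No paired analysis was possible because the tables give 1 value per gene and group, and for the same reason no library could be left out in turn. The count of called genes was 0 of 10 in both tables also at q below 0.01 and at an unadjusted p below 0.05. The median log2 fold change of the 10 genes in BG3C2 cells, -0.14, was -0.13 with FPKM + 1 and -0.13 over the 5 genes whose locus overlaps no other. In brains the median, 0.01, was 0.06 over those 5 genes. The median of all tested genes was -0.009 in BG3C2 cells and -0.008 in brains, and centring on it turned no sign. Where at least 50% of a region had to lie inside the locus, 4 loci had a Wds region in place of 7, without wds, ash1 and Rbbp5, whose Wds regions extend past the locus. The other counts of marked loci moved by no more than 1.5 times under the alternatives run. The depth of the libraries is unknown and the size of change that could have been called was not measured, and the lists do not give the strength of binding or of 6mA.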
